A study of Homo sapiens with 9 samples.

Results

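The mRNAs that encode the DNA replication machinery and its S-phase supply were followed in ES-2 cells, an established line derived from an epithelial ovarian carcinoma, upon depletion of the RNA-binding protein IGF2BP1 or of the transcription factor SRF (serum response factor). The set holds 48 of the 58174 genes in the deposited tables, chosen by name for their known role in origin licensing, the replicative helicase, DNA synthesis, deoxynucleotide supply, chromatin assembly or recombination, and each of the 48 was found by its symbol in both tables. Cells were transfected with a control siRNA (siC), with siRNAs directed at IGF2BP1 (siIGF2BP1) or with siRNAs directed at SRF (siSRF), and were harvested 72 h later. Each condition has 3 libraries of total RNA depleted of ribosomal RNA, prepared with a directional kit. The study's methods describe siRNA pools, so each knockdown stands for the reagent used against that target in 1 cell line. The labels do not say whether libraries of a condition came from separate cultures, so the p-values below measure only the spread between these libraries. Both knockdowns are compared with the same siC libraries, and siSRF was also compared directly with siIGF2BP1.

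Replication starts from origins that the origin recognition complex marks in G1, where CDC6 and CDT1 load the ring-shaped MCM helicase. In S phase, CDC45 and the GINS complex turn the loaded ring into the active helicase, polymerase alpha with primase lays down primers, and clamp loader, sliding clamp and the polymerases delta and epsilon copy the strands. Many of these genes are classical targets of the E2F transcription factors and are transcribed mostly around the G1/S transition in dividing cells. SRF is best known for controlling cytoskeletal and immediate early genes through the CArG box, and IGF2BP1 for protecting target mRNAs from decay.

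The promoters show what the members share beyond their function. RefSeq start sites (GRCh38.p14) were found for 42 of the members, each with 250 bases upstream and 50 downstream, and the missing ones are GINS4, MCM4, MCM5, POLD3, RPA2 and RPA3. An E2F motif, searched on both strands as TTTCCCGC, TTTCGCGC, TTTGCCGC or TTTGGCGC, was present in 19 of these 42 promoters (45.2%), against 3.33% of all 27305 promoters of the same length. The forms overlap, since TTTGGCGC on one strand of MCM6 runs into TTTCGCGC on the other. The CCAAT box (CCAAT) was present in 23 member promoters (54.8%, against 35.7% of all) and the Sp1 box (GGGCGG) in 30 (71.4%, against 44.6%). The cell cycle homology region, searched as TTTGAA or TTCGAA and typical of mitotic genes, was found in 2 (4.76%, against 16.6%). The CArG box was found in none of the 42 and in 1.29% of all promoters. At so low a share, its absence from a set of 42 says little about these genes. The median GC content was 64.7% in the member promoters and 58.3% in all. A match is a description of these letters and not a binding site.

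The E2F matches are printed below for members whose mRNA differed between conditions, because they show how near the motif lies to the start of genes that responded differently. Each line gives 30 bases upstream of the RefSeq start in the direction of transcription, with the matched bases in capitals. The CDT1 window (chr16:88803743-88803772, plus strand) has its match at positions -35 to -28 from the start. The MCM6 windows (chr2:135876575-135876604, minus strand, and chr2:135876513-135876542, minus strand) hold a pair of overlapping matches each, at -152 to -141 and at -90 to -79. The PCNA window is chr20:5126663-5126692, minus strand, with the match at -59 to -52. These lie in no GENCODE exon or intron.
CDT1: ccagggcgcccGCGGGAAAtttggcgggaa
MCM6: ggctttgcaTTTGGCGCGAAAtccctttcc
MCM6: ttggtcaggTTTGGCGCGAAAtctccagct
PCNA: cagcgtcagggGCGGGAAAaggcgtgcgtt

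The TYMS window (chr18:657603-657632, plus strand) lies in an intron of TYMSOS on the opposite strand, with its match at -39 to -32. The windows of RFC3 (chr13:33818083-33818112, plus strand, match at -55 to -48), POLA2 (chr11:65261898-65261927, plus strand, match at -53 to -46), LIG1 (chr19:48170440-48170469, minus strand, match at -114 to -107), UHRF1 (chr19:4909471-4909500, plus strand, match at -14 to -7) and MCM7 (chr7:100101398-100101427, minus strand, match at -9 to -2) overlap an exon that GENCODE gives the same gene, the POLA2 window only in part, since the gene starts at 65261913 there. An additional MCM7 match lies farther upstream of the RefSeq start, at -187 to -180 (chr7:100101566-100101595, minus strand). This window also overlaps a GENCODE exon of MCM7, and an exon of AP4M1 runs there on the opposite strand.
MCM7: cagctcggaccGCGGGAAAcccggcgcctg
MCM7: ccggtcacgtggggggcgacgTTTCGCGCc
RFC3: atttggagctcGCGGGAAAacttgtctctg
POLA2: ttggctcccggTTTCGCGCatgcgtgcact
LIG1: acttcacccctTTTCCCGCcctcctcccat
TYMS: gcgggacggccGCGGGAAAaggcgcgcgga
UHRF1: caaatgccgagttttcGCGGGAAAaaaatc

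**Figure D1:**
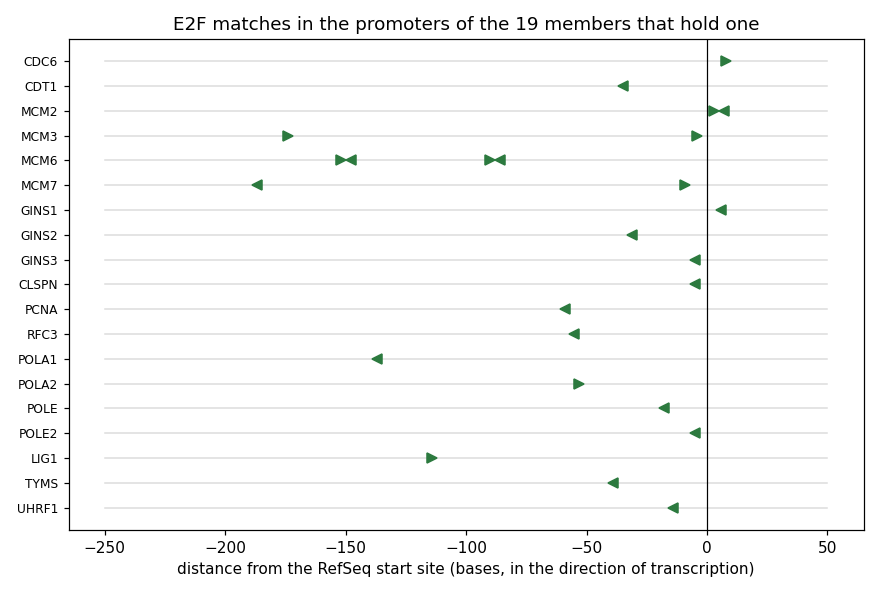
Positions of the E2F matches in the promoters of the 19 members that hold one. The x axis is the distance in bases from the RefSeq start site, each grey line is the 300-base window of 1 gene, and arrowheads mark the first base and the strand of a match. Of the 19 members, 13 have a match that lies wholly upstream, 10 of them within 100 bases of the start.

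Between 6421764 and 9416175 reads per library (median 7377934) were counted on genes, and each member had between 128 and 4595 reads in every library. The IGF2BP1 mRNA was at 12.8, 13.5 and 12.1 FPKM in siC and 4.18, 4.14 and 4.02 FPKM in siIGF2BP1. The SRF mRNA was at 13.6, 14.1 and 16.0 FPKM in siC and 1.63, 1.36 and 1.42 FPKM in siSRF, and it was also lower in siIGF2BP1, at 5.80, 5.42 and 6.80 FPKM. Both knockdowns thus lowered SRF, to 41.3% of the mean FPKM of siC in siIGF2BP1 and to 10.1% in siSRF. Of the epithelial markers, KRT7 (101 FPKM in siC), KRT8 (8.81) and KRT18 (43.4) were present, while EPCAM and CDH1 were listed at 0 in siC and the Muellerian marker PAX8 was at 0.155 FPKM. The mesenchymal marker VIM was at 1055 FPKM. The blood marker PTPRC was listed at 0 in all libraries and the endothelial PECAM1 was at 0.313 FPKM in siC. KRT18 was higher in siSRF (81.7 FPKM) and KRT7 in siIGF2BP1 (152 FPKM). Of the 6 markers that the main test below covered, 2 were called higher and 0 lower in siIGF2BP1. In siSRF 2 were called higher and 1 lower, with log2 fold changes of the markers from -1.10 to 0.91. The part of these markers in the results below was not tested.

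More replication genes fell than rose in either knockdown. The members called had log2 fold changes from -0.52 (CHAF1A) to 0.53 (DUT) in siIGF2BP1 and from -0.79 (MCM6) to 0.54 (PRIM2) in siSRF. Upon IGF2BP1 depletion, 7 of the 48 members were lower and 2 were higher (limma-trend on log2(FPKM + 0.1), adjusted p of at most 0.01 over all genes tested). This is 14.6% of the members lower and 4.17% higher, beside 3.57% and 3.55% of the 22292 genes tested. Among protein-coding genes of at least 1 FPKM, 7.07% were lower and 6.49% higher. Upon SRF depletion, 15 members (31.2%) were lower and 1 (2.08%) was higher, beside 5.34% and 6.85% of 21857 genes. Among protein-coding genes of at least 1 FPKM these shares were 10.2% and 13.3%. The median log2 fold change of the members was -0.12 in siIGF2BP1 and -0.19 in siSRF, beside 0.02 and 0.01 over all genes tested and -0.02 and 0.04 over protein-coding genes of at least 1 FPKM. The fold was negative for 34 of the 48 in siIGF2BP1 and for 38 in siSRF. With the libraries rescaled by median ratios, 6 members were lower and 3 higher in siIGF2BP1, and 18 were lower and 0 higher in siSRF. As deposited, 3 members were higher in siSRF at an unadjusted p under 0.05. Rescaling also shifted all genes. It gave 765 lower and 906 higher in siIGF2BP1 (796 and 792 as deposited), and 1393 and 1311 in siSRF (1167 and 1498 as deposited). RNA was taken from whole cultures, so fewer cells in S phase and less mRNA per cell cannot be told apart.

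The counts were larger with a test on the recovered reads, limma-voom, which called 15 members lower and 4 higher in siIGF2BP1 (8.48% and 8.59% of all genes) and 19 lower and 2 higher in siSRF (10.7% and 12.7% of all genes). The 3 knockdown libraries lay below all siC libraries for 22 members in siIGF2BP1 (17.6% of all genes) and for 25 in siSRF (19% of all genes). They lay above all siC libraries for 4 members in siIGF2BP1 (18.1% of all genes) and for 3 in siSRF (20.9% of all genes). Among protein-coding genes of at least 1 FPKM, 28.6% were wholly below siC and 25.1% wholly above in siIGF2BP1, and 27.5% and 34.9% in siSRF. For any gene without overlap the two-sided exact permutation test gives p = 0.1, the smallest that 3 libraries against 3 allow.

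**Figure D2:**
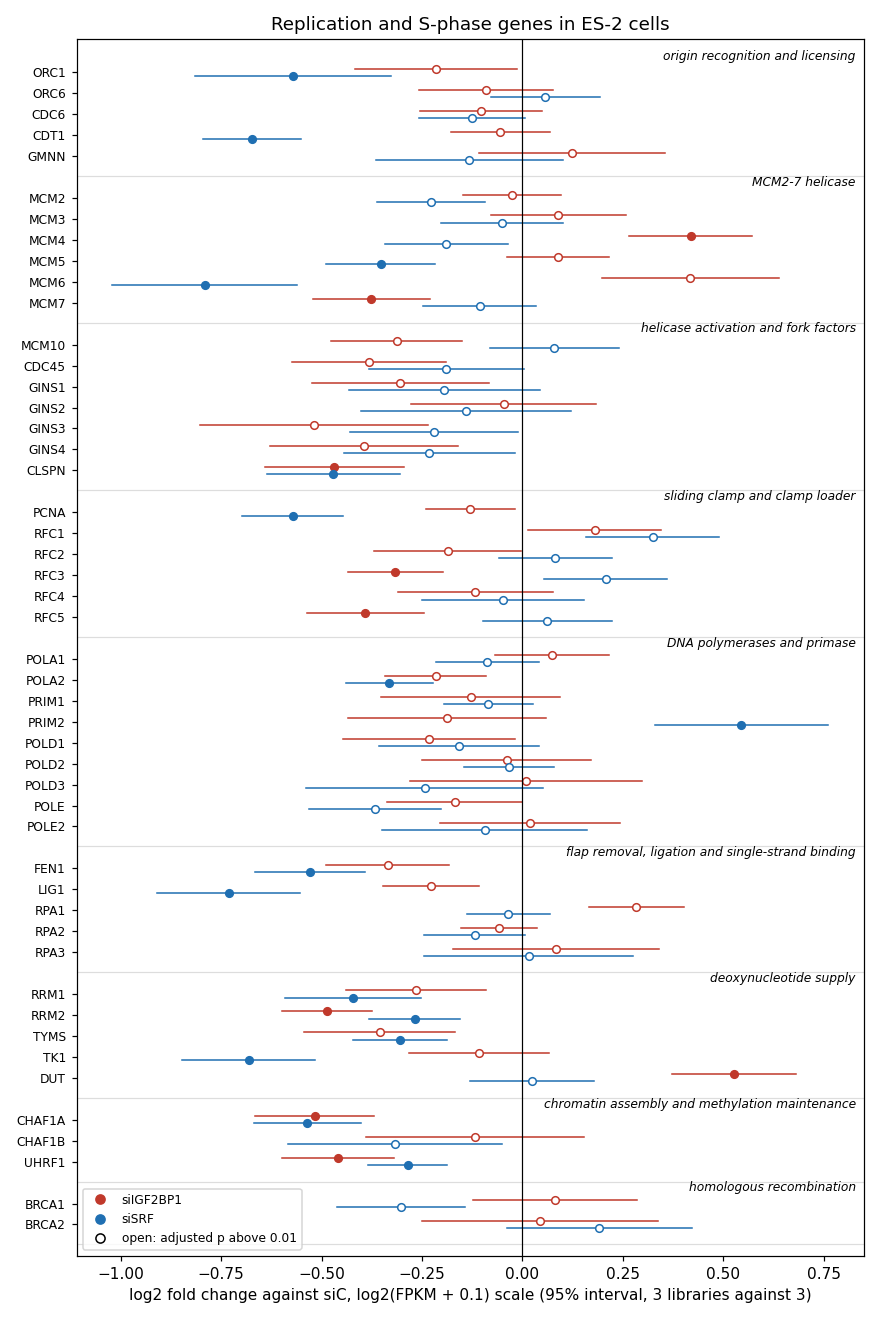
Log2 fold change against siC of the 48 members on the log2(FPKM + 0.1) scale, by role, in siIGF2BP1 (red) and siSRF (blue). Lines are 95% intervals of the limma fit, and filled points passed an adjusted p of 0.01. MCM6 lies farthest to the left in siSRF (-0.79), and DUT and MCM4 are the filled red points to the right of 0.

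The direct comparison of siSRF with siIGF2BP1, which uses no siC library, called 11 members lower and 6 higher in siSRF. This is 22.9% and 12.5% of the members, beside 8.82% and 11.2% of 22311 genes. Among protein-coding genes of at least 1 FPKM, 15.6% were lower and 21.8% higher. With limma-voom, 14 members were lower and 8 higher (14.7% and 16.3% of all genes). The siSRF libraries lay below all siIGF2BP1 libraries for 22 members (22.8% of all genes) and above them for 11 (23.3% of all genes). Among protein-coding genes of at least 1 FPKM these shares were 30.6% and 39.4%. After rescaling by median ratios, 17 members were lower and 4 higher, beside 2373 and 2089 of all genes (1968 and 2492 as deposited). As deposited, the median log2 fold change of the members was -0.06 (-0.02 over all genes tested). The members lower in siSRF than in siIGF2BP1 were CDT1, GMNN, MCM4, MCM5, MCM6, PCNA, LIG1, RPA1, TK1, DUT and BRCA1. Those higher were MCM7, MCM10, RFC3, RFC5, PRIM2 and RRM2.

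**Figure D3:**
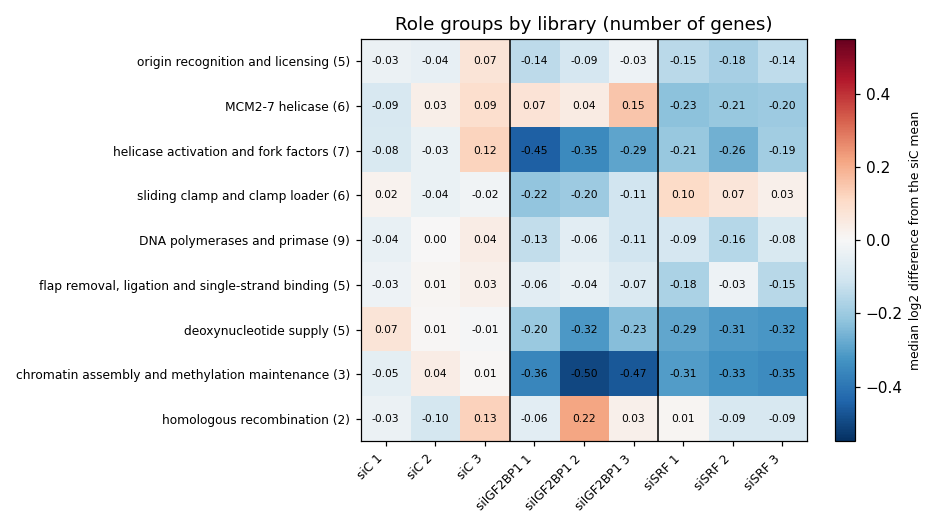
Median over the genes of each role of the log2 difference from the siC mean, for every library, with the number of genes in brackets. Colour and the printed value give the same quantity. The helicase activation and fork factors lie between -0.45 and -0.29 in siIGF2BP1 and between -0.26 and -0.19 in siSRF, and the MCM2-7 row lies between 0.04 and 0.15 in siIGF2BP1 and between -0.23 and -0.20 in siSRF.

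The counts by role that follow stand beside 3.57% of all genes called lower and 3.55% higher in siIGF2BP1. In siSRF these shares were 5.34% and 6.85%, and in the direct comparison 8.82% and 11.2%. They were 7.07% and 6.49%, 10.2% and 13.3%, and 15.6% and 21.8% over protein-coding genes of at least 1 FPKM. Of the 5 licensing genes, 2 fell upon SRF depletion, and 0 passed upon IGF2BP1 depletion with limma-trend or limma-voom (1 was lower at an unadjusted p under 0.05). CDT1 (chromosome 16, 88803789 to 88809258, plus strand, GRCh38), which brings the MCM ring to the origin, was at 19.4, 21.1 and 19.6 FPKM in the siC libraries, 19.5, 18.8 and 19.5 in siIGF2BP1 and 12.4, 12.7 and 12.5 in siSRF. All siSRF libraries were below all others, and siC and siIGF2BP1 overlapped. The log2 fold change was -0.67 (SE 0.05, adjusted p = 5.6e-04) in siSRF, -0.06 (SE 0.051, adjusted p = 0.53) in siIGF2BP1 and -0.62 (SE 0.04, adjusted p = 1.2e-04) between the knockdowns. ORC1, the large ATPase subunit of the origin recognition complex, was at 11.8, 9.88 and 11.6 FPKM in the siC libraries, 9.34, 9.47 and 9.83 in siIGF2BP1 and 7.90, 6.71 and 7.73 in siSRF. Its level in siSRF was below the other groups, with a log2 fold change of -0.57 (SE 0.10, adjusted p = 0.0094) against siC. After a correction for the GC content and length of genes it was -0.53, with an adjusted p of 0.014. GMNN (geminin), the inhibitor that holds CDT1 back after origins have fired, was at 18.4, 15.1 and 19.2 FPKM in the siC libraries, 18.3, 19.3 and 19.5 in siIGF2BP1 and 16.6, 15.4 and 15.8 in siSRF. Its siC libraries overlapped both knockdowns, and siSRF was below siIGF2BP1 with a log2 difference of -0.26 (SE 0.048, adjusted p = 0.0085), a call that limma-voom did not make. The loader CDC6 (20.9, 19.5 and 19.2 FPKM on average in siC, siIGF2BP1 and siSRF) and the small subunit ORC6 (12.1, 11.4 and 12.6 FPKM) passed in no comparison.

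Of the 6 subunits of the MCM helicase, which assemble in equal numbers into a ring, 1 rose and 1 fell in siIGF2BP1 and 2 fell in siSRF with limma-trend. With limma-voom 2 rose and 1 fell in siIGF2BP1 and 4 fell in siSRF. MCM6 (chromosome 2, 135839626 to 135876443, minus strand) was at 19.8, 23.4 and 25.2 FPKM in the siC libraries, 30.1, 30.7 and 30.2 in siIGF2BP1 and 13.0, 13.6 and 12.6 in siSRF. The siIGF2BP1 libraries were above and the siSRF libraries below all siC libraries. Its log2 fold change was -0.79 (SE 0.095, adjusted p = 0.0024) in siSRF and 0.42 (SE 0.091, adjusted p = 0.027) in siIGF2BP1. The rise in siIGF2BP1 did not pass with limma-trend and was called with limma-voom (adjusted p = 9.8e-05). The difference between the knockdowns, -1.21 (SE 0.042, adjusted p = 1.8e-05), was the largest of any member. MCM4 was at 56.2, 54.3 and 63.0 FPKM in the siC libraries, 76.1, 76.2 and 79.5 in siIGF2BP1 and 50.3, 52.2 and 49.4 in siSRF. It was higher in siIGF2BP1, with a log2 fold change of 0.42 (SE 0.063, adjusted p = 0.0076). In siSRF it was at -0.19 (SE 0.063, adjusted p = 0.081) against siC, which limma-voom called lower (adjusted p = 0.0069). Against siIGF2BP1 it was at -0.61 (SE 0.037, adjusted p = 1.1e-04).

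MCM7 (chromosome 7, 100092233 to 100101940, minus strand), the subunit with the highest level in siC, was at 89.9, 99.6 and 99.6 FPKM in the siC libraries, 76.4, 70.3 and 75.9 in siIGF2BP1 and 90.2, 93.0 and 85.2 in siSRF. Unlike MCM4 it fell in siIGF2BP1, with a log2 fold change of -0.38 (SE 0.06, adjusted p = 0.0093), and it stood at -0.11 (SE 0.058, adjusted p = 0.26) in siSRF. The siSRF libraries were above siIGF2BP1 with a log2 difference of 0.27 (SE 0.051, adjusted p = 0.0084), which was not called after rescaling (0.20, adjusted p = 0.023). The exons of MCM7 overlap the oppositely oriented AP4M1 over 7.9% of their length, and AP4M1 averaged 5.12, 3.45 and 6.01 FPKM in siC, siIGF2BP1 and siSRF. Whether reads were counted by strand is not given in the sources used here. MCM5 was at 19.3, 20.4 and 19.9 FPKM in the siC libraries, 21.4, 20.1 and 21.9 in siIGF2BP1 and 15.7, 16.3 and 14.7 in siSRF. The log2 fold change in siSRF was -0.35 (SE 0.056, adjusted p = 0.0064) against siC, or -0.16 with an adjusted p of 0.09 after a GC and length correction, and -0.44 (SE 0.058, adjusted p = 0.0019) against siIGF2BP1. MCM2 (55.2, 54.2 and 47.1 FPKM on average) and MCM3 (86.1, 91.5 and 83.0 FPKM) passed in no comparison with limma-trend, although both were lower in every siSRF than in every siIGF2BP1 library. With limma-voom, MCM2 was lower in siSRF against siC (adjusted p = 0.002) and against siIGF2BP1 (adjusted p = 7.6e-04), and MCM3 was called in no comparison. After rescaling MCM2 was also called lower in both (adjusted p = 0.0098 and 0.0029). After a GC and length correction it stood at -0.05 (adjusted p = 0.5) against siC and -0.10 (adjusted p = 0.13) against siIGF2BP1.

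The share of each subunit in the MCM2-7 transcripts can be read from the same values. The summed level of the 6 genes (in FPKM, mean ± SD, n = 3) was 338 ± 21.3 in siC, 349 ± 8.82 in siIGF2BP1 and 299 ± 4.03 in siSRF. MCM6 held 6.72% ± 0.421 of it in siC, 8.71% ± 0.281 in siIGF2BP1 and 4.38% ± 0.105 in siSRF. MCM7 held 28.5% ± 0.768, 21.3% ± 0.719 and 29.9% ± 0.955 in the same order. MCM4 held 17.1% ± 0.975, 22.2% ± 0.191 and 16.9% ± 0.259. These shares describe FPKM, which is per length, and were not tested.

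**Figure D4:**
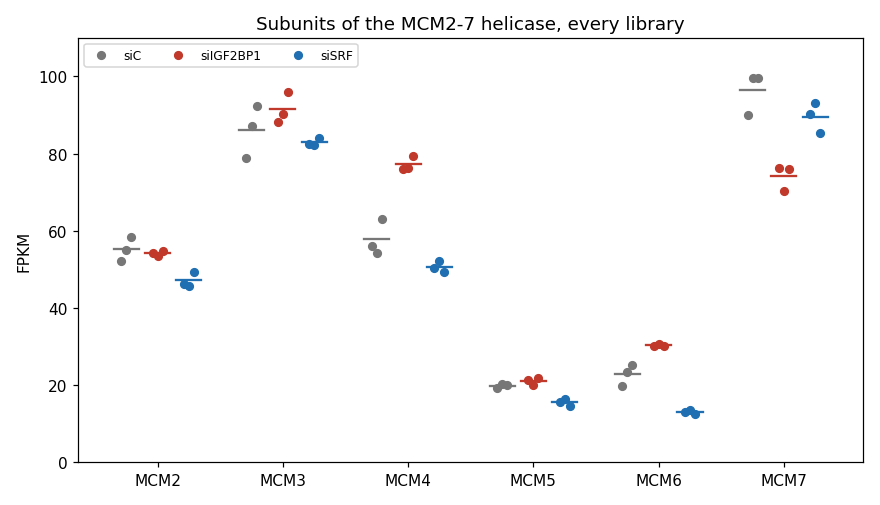
FPKM of the subunits of the MCM2-7 helicase in every library, with siC in grey, siIGF2BP1 in red and siSRF in blue. Points are libraries and short lines are means of 3. MCM4 and MCM6 are highest in siIGF2BP1, MCM7 is lowest there, and MCM6 is lowest in siSRF, at 12.6 to 13.6 FPKM.

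All 7 factors that activate the helicase or travel with the fork had a negative log2 fold change in siIGF2BP1, also after rescaling and after a GC and length correction, and 1 of them passed the threshold. CLSPN (claspin), an adaptor between fork and checkpoint kinase, was at 16.4, 19.1 and 17.8 FPKM in the siC libraries, 12.8, 13.4 and 12.2 in siIGF2BP1 and 12.5, 12.5 and 13.3 in siSRF. It fell in both knockdowns, with log2 fold changes of -0.47 (SE 0.071, adjusted p = 0.0079) in siIGF2BP1 and -0.47 (SE 0.068, adjusted p = 0.0047) in siSRF, and the knockdown libraries overlapped each other. MCM10, which helps to start the unwinding, was at 11.2, 11.7 and 12.8 FPKM in the siC libraries, 9.28, 9.68 and 9.72 in siIGF2BP1 and 13.1, 12.3 and 12.3 in siSRF. All siIGF2BP1 libraries were below the others. MCM10 stood at -0.31 (SE 0.067, adjusted p = 0.026) in siIGF2BP1, where it did not pass, and was higher in siSRF than in siIGF2BP1, with a log2 difference of 0.39 (SE 0.05, adjusted p = 0.0017).

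CDC45 and the 4 GINS subunits, the partners of MCM2-7 in the active helicase, did not pass in any comparison with limma-trend. Their log2 fold changes in siIGF2BP1 were -0.38 for CDC45, -0.30 for GINS1, -0.05 for GINS2, -0.52 for GINS3 and -0.40 for GINS4. The adjusted p-values ranged from 0.023 for CDC45 to 0.8 for GINS2. In siSRF the values lay between -0.23 for GINS4 and -0.14 for GINS2. GINS3 was the least abundant member, at 4.92, 5.10 and 5.69 FPKM in siC and 3.27, 3.49 and 4.14 FPKM in siIGF2BP1. With limma-voom, 6 of the 7 genes of this group were lower in siIGF2BP1 and 1 in siSRF. The summed GINS1 to GINS4 level was 63.1 ± 6.78 FPKM in siC, 51.9 ± 2.02 in siIGF2BP1 and 55 ± 2.37 in siSRF (SD, n = 3).

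The sliding clamp fell with SRF depletion, and parts of the loader that places it on DNA fell with IGF2BP1 depletion. PCNA (chromosome 20, 5114953 to 5126626, minus strand), the clamp and the most abundant member, was at 146, 144 and 143 FPKM in the siC libraries, 125, 135 and 135 in siIGF2BP1 and 103, 97.4 and 91.0 in siSRF. The groups did not overlap. The log2 fold change was -0.57 (SE 0.052, adjusted p = 0.001) in siSRF and -0.13 (SE 0.046, adjusted p = 0.12) in siIGF2BP1, and the difference between siSRF and siIGF2BP1 was -0.44 (SE 0.058, adjusted p = 0.0018).

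RFC3 (chromosome 13, 33818069 to 33966558, plus strand), a small subunit of the clamp loader, was at 18.0, 16.9 and 17.0 FPKM in the siC libraries, 14.1, 13.5 and 14.0 in siIGF2BP1 and 18.8, 21.6 and 19.6 in siSRF. The siIGF2BP1 libraries were lowest and the siSRF libraries highest, with no overlap among the groups. The log2 fold change was -0.32 (SE 0.049, adjusted p = 0.0084) in siIGF2BP1 (-0.29, adjusted p = 0.012 after rescaling) and 0.52 (SE 0.06, adjusted p = 0.0011) between siSRF and siIGF2BP1. In siSRF against siC it was 0.21 (SE 0.063, adjusted p = 0.063), which did not pass, and -0.03 (adjusted p = 0.83) after a GC and length correction. RFC5, another small subunit, was at 16.5, 15.5 and 16.9 FPKM in the siC libraries, 11.8, 12.6 and 12.9 in siIGF2BP1 and 18.2, 17.1 and 15.9 in siSRF. It fell by 0.39 on the log2 scale (SE 0.06, adjusted p = 0.0082) in siIGF2BP1, and siSRF was above siIGF2BP1 with a log2 difference of 0.45 (SE 0.066, adjusted p = 0.0029). RFC5 shares 5.7% of its exon length with the oppositely oriented WSB2, which averaged 15.9, 15.4 and 23.2 FPKM in siC, siIGF2BP1 and siSRF. The large subunit RFC1 (23.3, 26.4 and 29.2 FPKM on average), RFC2 (27.2, 23.9 and 28.7 FPKM) and RFC4 (14.6, 13.4 and 14.1 FPKM) passed in no comparison with limma-trend. With limma-voom, RFC1 was higher in siSRF against siC (adjusted p = 1.5e-04) and RFC2 higher in siSRF than in siIGF2BP1 (adjusted p = 0.0054). RFC1 had the highest of the fold changes among the loader subunits in siSRF, 0.32 (SE 0.068, adjusted p = 0.018). The share of RFC1 in the summed RFC transcripts was 23.6% ± 1.55 in siC, 29.3% ± 1.06 in siIGF2BP1 and 26.7% ± 0.641 in siSRF.

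Of the 9 polymerase and primase genes, 1 was lower and 1 higher in siSRF against siC and 0 passed in siIGF2BP1 with limma-trend. The 11.1% in each direction in siSRF is near the 10.2% lower and 13.3% higher of protein-coding genes of at least 1 FPKM. In siIGF2BP1 limma-voom also called 0, and 3 were lower at an unadjusted p under 0.05. POLA2, the regulatory subunit of polymerase alpha, was at 18.1, 18.8 and 19.4 FPKM in the siC libraries, 16.1, 16.8 and 15.6 in siIGF2BP1 and 14.96, 14.96 and 14.8 in siSRF. It fell by 0.33 on the log2 scale (SE 0.045, adjusted p = 0.0037) in siSRF and stood at -0.22 (SE 0.052, adjusted p = 0.039) in siIGF2BP1, and the knockdown libraries did not overlap siC. PRIM2, the large primase subunit, was at 17.3, 14.1 and 14.3 FPKM in the siC libraries, 13.0, 14.5 and 12.4 in siIGF2BP1 and 21.7, 23.2 and 21.5 in siSRF. It was the only member that the main test called higher in siSRF against siC, with a log2 fold change of 0.54 (SE 0.089, adjusted p = 0.0071), and siSRF was above siIGF2BP1 with a log2 difference of 0.73 (SE 0.07, adjusted p = 5.4e-04). The call against siC was not made after rescaling (0.50, adjusted p = 0.012) or after a GC and length correction (0.43, adjusted p = 0.016). A near-identical copy of part of PRIM2 is known in the genome, so its reads may be split in the counting and its level is uncertain.

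PRIM1, the catalytic primase subunit, was at 17.9, 16.5 and 16.9 FPKM on average in siC, siIGF2BP1 and siSRF and was not called in any comparison. POLE, the catalytic subunit of the leading-strand polymerase, just missed the threshold in siSRF with -0.37 (SE 0.067, adjusted p = 0.011) (8.76, 9.96 and 9.75 FPKM in siC, 7.27, 7.37 and 7.33 in siSRF). It was called lower after rescaling (-0.42, adjusted p = 0.0058) and with limma-voom (adjusted p = 3.2e-05), while after a GC and length correction it stood at -0.15 (adjusted p = 0.11). Its difference between siSRF and siIGF2BP1 was -0.20 (adjusted p = 0.026). This was called lower with limma-voom (adjusted p = 0.0053) and after rescaling (-0.27, adjusted p = 0.0079), but turned to 0.08 (adjusted p = 0.29) after the GC and length correction. The other polymerase genes were POLA1, POLD1, POLD2, POLD3 and POLE2. Their log2 fold changes lay between -0.23 (POLD1) and 0.07 (POLA1) in siIGF2BP1 and between -0.24 (POLD3) and -0.03 (POLD2) in siSRF. POLD2, an accessory subunit of polymerase delta, was the most abundant of the polymerase genes, at 48.1 FPKM in siC.

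Both enzymes that finish the lagging strand fell in siSRF. LIG1 (chromosome 19, 48115445 to 48170603, minus strand), the ligase that seals Okazaki fragments, was at 12.1, 12.6 and 12.7 FPKM in the siC libraries, 10.5, 10.6 and 10.7 in siIGF2BP1 and 6.99, 7.24 and 8.17 in siSRF. The groups did not overlap and siSRF was lowest. LIG1 changed by a log2 fold of -0.73 (SE 0.073, adjusted p = 0.0014) in siSRF and -0.23 (SE 0.05, adjusted p = 0.027) in siIGF2BP1, which did not pass, with -0.50 (SE 0.07, adjusted p = 0.0024) between the knockdowns. FEN1, the nuclease that removes the flap before ligation, was at 64.1, 70.9 and 72.9 FPKM in the siC libraries, 55.6, 56.8 and 52.1 in siIGF2BP1 and 46.9, 47.9 and 49.0 in siSRF. It fell by 0.53 on the log2 scale (SE 0.056, adjusted p = 0.0016) in siSRF and stood at -0.34 (SE 0.063, adjusted p = 0.016) in siIGF2BP1, with the same order of groups as LIG1 and no overlap. Limma-voom called FEN1 lower in siIGF2BP1 too (adjusted p = 2.7e-04).

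The single-strand binding protein RPA has 3 subunits, and with limma-trend 1 of them was called, in the direct comparison. RPA1, the large subunit, was at 24.9, 25.4 and 25.9 FPKM in the siC libraries, 30.8, 29.6 and 32.4 in siIGF2BP1 and 24.3, 25.6 and 24.4 in siSRF. It stood at 0.28 (SE 0.049, adjusted p = 0.012) in siIGF2BP1, just above the threshold (called higher with limma-voom, adjusted p = 0.0013), and was lower in siSRF than in siIGF2BP1, with a log2 difference of -0.32 (SE 0.048, adjusted p = 0.0033). RPA2 (29.7, 28.6 and 27.4 FPKM on average) and RPA3 (10.5, 11.1 and 10.6 FPKM) passed in no comparison with either test.

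Of the 5 genes that supply deoxynucleotides, 4 fell in siSRF, while in siIGF2BP1 RRM2 fell and DUT rose. RRM2, the regulated small subunit of ribonucleotide reductase, was at 56.8, 52.2 and 54.4 FPKM in the siC libraries, 39.6, 39.0 and 37.8 in siIGF2BP1 and 46.8, 43.9 and 44.9 in siSRF. The groups did not overlap, with siIGF2BP1 lowest. The log2 fold change was -0.49 (SE 0.046, adjusted p = 0.0016) in siIGF2BP1 and -0.27 (SE 0.047, adjusted p = 0.0093) in siSRF. The difference between the knockdowns, 0.22 (SE 0.039, adjusted p = 0.0067), was not called after rescaling (0.15, adjusted p = 0.031) or after a GC and length correction (0.18, adjusted p = 0.014). RRM1, the large subunit of the same enzyme, was at 42.4, 39.0 and 35.4 FPKM in the siC libraries, 32.8, 31.1 and 33.0 in siIGF2BP1 and 29.5, 28.2 and 29.2 in siSRF. It fell by 0.42 on the log2 scale (SE 0.07, adjusted p = 0.0075) in siSRF and stood at -0.26 (SE 0.072, adjusted p = 0.055) in siIGF2BP1, where limma-voom called it lower (adjusted p = 0.0054).

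TK1, the thymidine salvage kinase of S phase, was at 46.7, 54.3 and 52.0 FPKM in the siC libraries, 46.9, 44.9 and 50.2 in siIGF2BP1 and 30.3, 31.7 and 33.2 in siSRF. The siSRF libraries stood apart, with -0.68 (SE 0.068, adjusted p = 0.0014) against siC and -0.57 (SE 0.057, adjusted p = 6.1e-04) against siIGF2BP1, while siIGF2BP1 was at -0.11 (SE 0.072, adjusted p = 0.39). TYMS (thymidylate synthase), which makes thymidylate from deoxyuridylate, was at 111, 107 and 100.1 FPKM in the siC libraries, 92.1, 78.9 and 78.3 in siIGF2BP1 and 87.0, 85.6 and 84.8 in siSRF. All libraries of both knockdowns were below siC, with log2 fold changes of -0.31 (SE 0.048, adjusted p = 0.0063) in siSRF and -0.36 (SE 0.078, adjusted p = 0.028) in siIGF2BP1. The latter did not pass with limma-trend and was called with limma-voom (adjusted p = 7.9e-05). After a GC and length correction the siSRF value was still -0.31, with an adjusted p of 0.0102. ENOSF1, on the opposite strand, overlaps 39.9% of the TYMS exon length and averaged 18.3, 15.7 and 10.8 FPKM in siC, siIGF2BP1 and siSRF, so the reads of the pair may not be fully separated.

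DUT (chromosome 15, 48331011 to 48343373, plus strand), the enzyme that removes deoxyuridine triphosphate, was at 43.7, 37.6 and 40.2 FPKM in the siC libraries, 58.6, 56.2 and 60.1 in siIGF2BP1 and 42.8, 40.0 and 40.5 in siSRF. The siIGF2BP1 libraries were above all others. DUT rose in siIGF2BP1 with a log2 fold change of 0.53 (SE 0.064, adjusted p = 0.0037) and stood at 0.02 (SE 0.064, adjusted p = 0.84) in siSRF, and the difference of siSRF from siIGF2BP1 was -0.50 (SE 0.043, adjusted p = 3.5e-04). DUT-AS1, on the opposite strand of 14.5% of the DUT exon length, averaged 1.02, 0.956 and 0.68 FPKM in siC, siIGF2BP1 and siSRF. Processed copies of DUT are also known, so its level carries that uncertainty.

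Of the 3 chromatin genes, CHAF1A and UHRF1 fell in both knockdowns. CHAF1A (chromosome 19, 4402640 to 4445018, plus strand), the large subunit of the chromatin assembly factor that loads histones behind the fork, was at 24.4, 27.5 and 25.8 FPKM in the siC libraries, 18.3, 17.3 and 18.7 in siIGF2BP1 and 17.5, 18.2 and 17.9 in siSRF. The log2 fold changes were nearly equal, -0.52 (SE 0.061, adjusted p = 0.0033) in siIGF2BP1 and -0.54 (SE 0.055, adjusted p = 0.0014) in siSRF. The difference between the knockdowns was -0.02 with a 95% interval from -0.13 to 0.09. UHRF1, which reads hemimethylated DNA and recruits the maintenance methyltransferase, was at 43.5, 46.5 and 45.6 FPKM in the siC libraries, 35.2, 31.9 and 31.5 in siIGF2BP1 and 36.5, 37.8 and 36.8 in siSRF. It fell by 0.46 on the log2 scale (SE 0.058, adjusted p = 0.0041) in siIGF2BP1 and, with -0.29 (SE 0.041, adjusted p = 0.0044), also in siSRF, the latter not called after a GC and length correction (-0.15, adjusted p = 0.014). CHAF1B, the middle subunit of the same assembly factor, passed in no comparison (7.42, 6.79 and 5.90 FPKM on average).

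**Figure D5:**
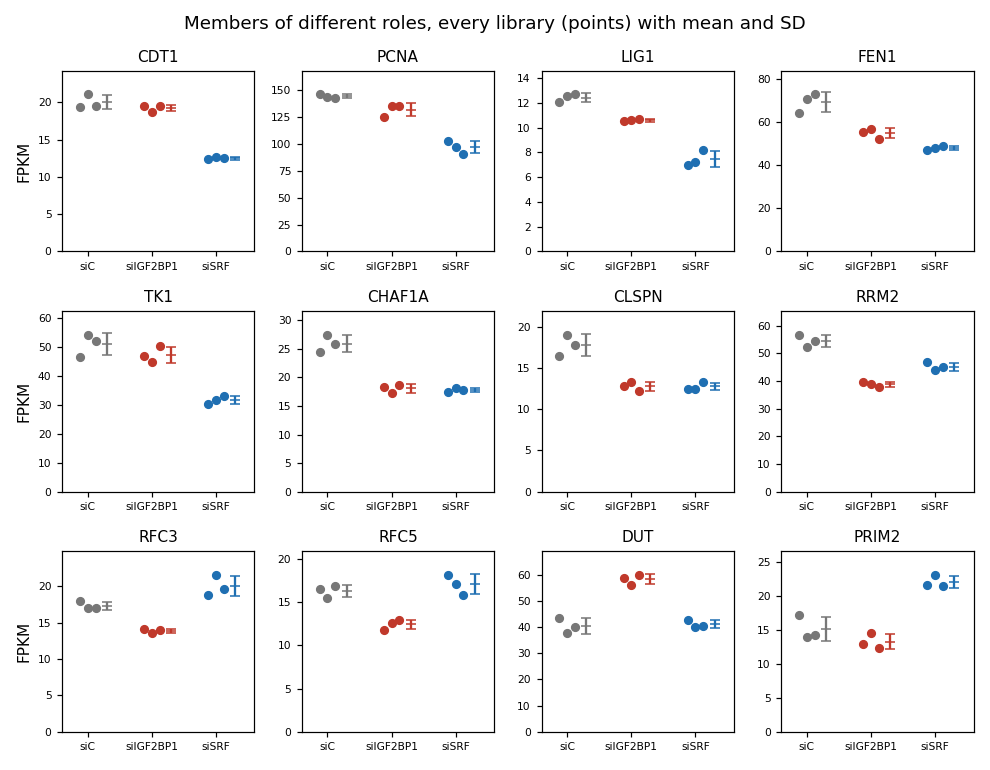
FPKM of 12 members in every library, with siC in grey, siIGF2BP1 in red and siSRF in blue. Points are libraries and the bar beside them is the mean with its SD (n = 3), and each y axis starts at 0. CDT1, PCNA, LIG1 and TK1 are lowest in siSRF, RFC3, RFC5 and RRM2 are lowest in siIGF2BP1, and CHAF1A and CLSPN are low in both.

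The recombination genes BRCA1 and BRCA2, which protect and repair stalled forks, were not called against siC in either knockdown with limma-trend. BRCA1 was at 11.1, 10.2 and 11.6 FPKM in the siC libraries, 10.6, 12.5 and 11.8 in siIGF2BP1 and 9.21, 8.69 and 8.74 in siSRF. All siSRF libraries were below the others, with -0.30 (SE 0.066, adjusted p = 0.02) against siC and -0.38 (SE 0.074, adjusted p = 0.0094) against siIGF2BP1, and limma-voom also called it lower against siC. BRCA2 was at 5.60, 5.78 and 6.39 FPKM on average and passed in no comparison.

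Of the 19 members with an E2F match in the promoter, 4 were lower in siIGF2BP1, with a median log2 fold change of -0.17 over the 19. In siSRF, 8 of them were lower, with a median of -0.23. Higher were 0 in either knockdown with limma-trend, and 1 at an unadjusted p under 0.05 in each, while limma-voom called 1 higher in siIGF2BP1 and 0 in siSRF. Of the 23 members with a promoter and no match, 3 were lower and 1 higher in siIGF2BP1 (median -0.13), and 6 were lower and 1 higher in siSRF (median -0.08). Limma-voom called 2 of these 23 higher in each knockdown, and 3 and 2 were higher at an unadjusted p under 0.05. It called 7 of the 19 and 7 of the 23 lower in siIGF2BP1, and 10 and 7 in siSRF. Over all genes tested, limma-trend called 3.57% lower and 3.55% higher in siIGF2BP1, and 5.34% and 6.85% in siSRF. Among the members with a match were genes that responded to 1 knockdown, such as CDT1 and RFC3, and the printed windows of these genes carry the same 8 matched letters. TK1, RRM2 and CHAF1A were called lower and have no match in the window searched, which says only that these letters are not in it.

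As a background for the lists that follow, limma-trend called 3.57% of all genes lower and 3.55% higher in siIGF2BP1. In siSRF it called 5.34% and 6.85%, and in the direct comparison 8.82% and 11.2%. For protein-coding genes of at least 1 FPKM these shares were 7.07% and 6.49%, 10.2% and 13.3%, and 15.6% and 21.8% in the same order. A list of 32 other genes of the replication machinery holds no member. In siIGF2BP1, 2 were lower and 0 higher with limma-trend (0 higher with limma-voom, 1 at an unadjusted p under 0.05), with a median log2 fold change of 0.04. These were CHTF8, of an alternative clamp loader (-0.43 (SE 0.054, adjusted p = 0.0042)), and ORC5, of the origin recognition complex (-0.36 (SE 0.055, adjusted p = 0.0085)). In siSRF, 4 were lower and 5 higher, with a median of 0.01. The smallest p-values were those of POLE4 (1.06 (SE 0.098, adjusted p = 0.001)) and POLE3 (0.49 (SE 0.056, adjusted p = 0.0022)), the histone-fold subunits of polymerase epsilon, which rose, and of FAM111A (-1.02 (SE 0.12, adjusted p = 0.0023)), a protease at the fork, which fell. In the direct comparison, 4 were lower and 7 higher in siSRF (median 0.07), led by MCMBP, an MCM-binding protein (0.70 (SE 0.051, adjusted p = 1.9e-04)). Called lower and higher were 6.25% and 0% of the list in siIGF2BP1, 12.5% and 15.6% in siSRF, and 12.5% and 21.9% in the direct comparison. The shares in siSRF and in the direct comparison were near those of protein-coding genes of at least 1 FPKM.

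Among 18 further genes of nucleotide metabolism and S-phase chromatin, 2 were lower and 1 higher in siIGF2BP1 (median -0.09). DTYMK, the thymidylate kinase, was at -1.05 (SE 0.082, adjusted p = 8.6e-04) and DCTPP1, a pyrophosphatase of deoxycytidine nucleotides, at -0.74 (SE 0.093, adjusted p = 0.0042), while SAMHD1, which breaks down deoxynucleotides, rose with 0.66 (SE 0.053, adjusted p = 9.6e-04). In siSRF, 1 was lower and 1 higher (median -0.06). The histone chaperone ASF1B was the lower one, at -0.88 (SE 0.088, adjusted p = 0.0013), and SAMHD1 the higher one, at 0.37 (SE 0.046, adjusted p = 0.0027). In the direct comparison 5 were lower and 3 higher in siSRF (median -0.0016), and the log2 difference of DTYMK was 1.05 (SE 0.072, adjusted p = 1.5e-04). Called lower and higher were 11.1% and 5.56% of the list in siIGF2BP1, 5.56% and 5.56% in siSRF, and 27.8% and 16.7% in the direct comparison.

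Of 27 genes of the fork checkpoint and recombination, 3 were lower in siIGF2BP1 (median -0.05) and 5 in siSRF (median 0.03). Higher were 0 in either with limma-trend. With limma-voom 0 were higher in siIGF2BP1 and 5 in siSRF, and 3 and 6 were higher at an unadjusted p under 0.05. RAD54L, a motor of strand exchange, had the smallest p in siIGF2BP1 (-0.86 (SE 0.073, adjusted p = 0.0011)) and the mismatch repair gene MSH6 in siSRF (-0.49 (SE 0.053, adjusted p = 0.0017)). FANCA, of the crosslink repair pathway, fell in both, with -0.54 (SE 0.081, adjusted p = 0.0076) in siIGF2BP1 and -0.55 (SE 0.065, adjusted p = 0.0023) in siSRF. In the direct comparison 2 were lower and 4 higher in siSRF (median 0.09). Called lower and higher were 11.1% and 0% of the list in siIGF2BP1, 18.5% and 0% in siSRF, and 7.41% and 14.8% in the direct comparison.

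Of 32 genes of mitosis, 11 were lower in siIGF2BP1, and 10 were lower and 3 higher in siSRF. In siIGF2BP1, 0 were higher with limma-trend, with limma-voom and at an unadjusted p under 0.05. The medians, -0.32 and -0.26, were below those of the 48 members. In siIGF2BP1 the kinetochore gene SPC24 (-0.83 (SE 0.058, adjusted p = 6.0e-04)), the kinase PLK1 (-0.63 (SE 0.053, adjusted p = 0.0011)) and the activator of the anaphase-promoting complex CDC20 (-0.62 (SE 0.054, adjusted p = 0.0013)) had the smallest p-values. In siSRF these were BIRC5, of the chromosomal passenger complex (-0.52 (SE 0.037, adjusted p = 5.2e-04)), the mitotic cyclin CCNB1 (-0.57 (SE 0.043, adjusted p = 5.7e-04)) and, higher, the checkpoint gene BUB3 (0.59 (SE 0.046, adjusted p = 6.5e-04)). Against siIGF2BP1, 1 was lower and 8 were higher in siSRF (median 0.14). Called lower and higher were 34.4% and 0% of the list in siIGF2BP1, 31.25% and 9.38% in siSRF, and 3.125% and 25% in the direct comparison. The part of a change in cell cycle phase in the values of the 48 members was not tested.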

How the data were processed

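Total RNA of 9 ES-2 libraries was measured. The authors clipped reads with Cutadapt 1.14, aligned them with HISAT2 2.1.0 to GRCh38, counted them on Ensembl genes with featureCounts 1.5.3 and deposited FPKM values, with TMM scaling, in 2 tables that share the siC columns. The authors' fold changes, p-values and FDR, also deposited there, were not used. FPKM times gene length gave whole reads for 100% of values (tolerance 0.01). Each comparison used limma 3.58.1 in R 4.3.3 (lmFit, eBayes with trend) on log2(FPKM + 0.1), a scale that understates changes of low genes, keeping genes that averaged 0.1 FPKM or more in its 6 libraries. Calls were made at a Benjamini-Hochberg adjusted p of 0.01 over all genes kept. The fits were tested on simulated data. Alternatives were pseudocounts of 0.01 and 1, other filters, median-ratio rescaling, limma-voom, all 9 libraries in one fit, a replicate block, an adjusted p of 0.05, protein-coding genes alone and leaving out each library. A correction for smooth trends of the library values with GC content and with the length of genes was added after the data were seen. Values in every library are given for members called in any comparison, and other lists by at most the 3 smallest p-values. The members and lists were chosen with earlier results of these data known. Positions are from GENCODE v44 on GRCh38, a later annotation than the authors'.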

Additional observations from a re-analysis of the deposited data

How the results depend on the processing

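No member that the main test called changed sign under any alternative. The counts depended on the test. In siIGF2BP1 against siC, 15 members were lower and 4 higher with limma-voom, 13 and 4 with all 9 libraries in one fit, and 15 and 4 at an adjusted p of at most 0.05. Over all genes, these settings called 1891 lower and 1914 higher, 1309 and 1172, and 1836 and 1760. In siSRF against siC, 2 members were higher under each of these settings, beside 2780, 2030 and 2899 of all genes. There, 0 were higher after median-ratio rescaling (median log2 fold change -0.24) or after the GC and length correction, beside 1311 and 1438 of all genes. The GC and length correction left 12 members lower in siSRF against siC, where the main test called 15, beside 1119 of all genes. It called 8 members lower and 3 higher in siIGF2BP1 (1004 and 934 of all genes), and 14 and 7 in the direct comparison (2052 and 2711). In siSRF against siIGF2BP1, 19 members were lower at an adjusted p of at most 0.05 and 17 after rescaling (median -0.14), beside 3345 and 2373 of all genes. Rescaling moved the median of all genes by -0.06 to 0.02.

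Same-numbered libraries did not deviate together (correlations of deviations from group means from -0.044 to 0.019). A pairing by replicate number was thus not seen in the values, but 3 libraries per condition cannot exclude one. With a replicate block, 0 members were lower and 0 higher in siIGF2BP1, 3 and 0 in siSRF, and 5 and 1 in the direct comparison. Over all genes, the block left 31 lower and 60 higher, 244 and 257, and 872 and 1203 in the same order. Without any one library, each comparison losing 1 of its 6 in turn, 0 to 2 members were lower and 0 to 1 higher in siIGF2BP1, 4 to 10 and 0 to 1 in siSRF, and 5 to 9 and 3 to 4 in the direct comparison, with medians from -0.15 to -0.10, -0.23 to -0.13 and -0.085 to -0.022. All genes called without a library were 224 to 329 lower and 212 to 420 higher in siIGF2BP1, and 482 to 673 and 464 to 1123 in siSRF. In the direct comparison they were 1214 to 1455 and 1577 to 1951. A call with 2 libraries in an arm has fewer degrees of freedom. CDT1, PCNA, LIG1 and CHAF1A in siSRF against siC kept their call without each library, as did CDT1, MCM4, MCM6, MCM10, RFC3, PRIM2, TK1 and DUT in the direct comparison. The directions of small fold changes depended on the scale: after the GC and length correction, those of MCM3, MCM7, MCM10, RFC3, RFC5, POLD1, POLD2, RPA3, DUT and BRCA2 in siSRF, of CDT1, MCM2, POLD2, POLD3, POLE2, TK1 and BRCA2 in siIGF2BP1 and of GINS1, PRIM1, POLE and CHAF1A in the direct comparison turned. Rescaling turned those of RPA3 and DUT in siSRF and of RFC4, PRIM1, POLD2 and TYMS in the direct comparison. Each was uncalled by the main test and after the change that turned it. POLE in the direct comparison was, however, called lower with limma-voom and after rescaling. Depth, at 128 reads or more for each member, leaves changes below the spread of 3 libraries undetected.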
